A study of Mus musculus with 10 samples.

Results

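The Toll-like receptors are a family of pattern receptors of innate immune cells, and 10 mouse members are described here: Tlr1, Tlr2, Tlr3, Tlr4, Tlr5, Tlr6, Tlr7, Tlr8, Tlr9 and Tlr13. They were chosen by gene name, as 10 of the 24033 gene names with usable values in the deposited tables, and all 10 passed the filter on low values (at least 0.5 RPKM in at least 3 libraries) that left 13621 genes to be tested. RPKM divides the reads of a gene by its length and by the size of the library. The samples were C57BL/6 microglia from mice of 3 to 5 months, isolated with magnetic beads against the myeloid integrin CD11b. There were 4 wild-type libraries (TREM2+/+; numbers 1, 4, 7 and 10; 2 female and 2 male), 3 heterozygous libraries (TREM2+/-; 5, 8 and 11; 2 female and 1 male) and 3 knockout libraries (TREM2-/-; 6, 9 and 12; 1 female and 2 male). No treatment is labelled and the Trem2 allele is not described. Whether mice were pooled for a library is also unstated, and the tests rest on library-to-library spread alone. CD11b is carried by other myeloid cells too.

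Toll-like receptors carry leucine-rich repeats that bind microbial products and a cytoplasmic TIR domain that recruits the adaptors MyD88 or TRIF, which leads to NF-kB and interferon regulatory factor activity. Tlr1, Tlr2, Tlr4, Tlr5 and Tlr6 act at the cell surface on lipopeptides, lipopolysaccharide and flagellin. Tlr3, Tlr7, Tlr8, Tlr9 and Tlr13 act in endosomes on nucleic acids, and Tlr13, a receptor for bacterial ribosomal RNA, is present in mice and absent in humans. Microglia are the main cells of the brain parenchyma that use these receptors. Trem2, the receptor whose gene was altered, signals through the adaptor DAP12 and is known to modulate Toll-like receptor responses of macrophages in culture.

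The libraries held 17.3 to 44.2 M recovered reads, 36.4 to 44.2 M in the 4 deeper ones (9, 10, 11 and 12) and 17.3 to 22.1 M in the other 6. Log2 values correlated across genes at a median of 0.973 both within and between genotypes. Trem2 was at 170 to 237 RPKM in wild type, 85.2 to 105 in heterozygous and 21.4 to 28.3 in knockout libraries, so the genotype labels held in all 10, and levels of Xist and of Y-linked genes matched the labelled sex in 10 of 10. All 10 microglial markers were present, with a summed level of 9009 to 10820 RPKM. Neutrophil markers summed to 104 to 223 RPKM in wild type, 143 to 358 in heterozygous and 372 to 2290 in knockout, with 2290 in knockout library 6 and at most 381 in any other. Monocyte markers summed to 142 RPKM in that same library and to between 38.8 and 51.9 elsewhere, and border macrophage markers to 84.7 to 137 in wild type, 104 to 174 in heterozygous (174 in library 8) and 95.3 to 166 in knockout. Of the 5 B cell markers 4 were under 1 RPKM in every library, and Pax5 was at 0 throughout. The markers of neutrophils and monocytes matter for this family, since both cells use several of its members. In such bulk samples, fewer cells of a type and less RNA per cell cannot be told apart.

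Tlr7 was the highest and Tlr8 the lowest member in every library. Levels of different genes are compared as RPKM, which divides by the gene length that the authors used (2600 to 4327 bases for the 10). Averaged over all 10 libraries, the order was Tlr7 (219 ± 31.5 RPKM; SD, n = 10), Tlr13 (135 ± 9.82), Tlr2 (70.2 ± 13.03), Tlr9 (65.3 ± 8.01), Tlr3 (57.9 ± 9.03), Tlr4 (30.7 ± 3.58), Tlr1 (23.6 ± 2.56), Tlr5 (17.9 ± 1.43), Tlr6 (12.0 ± 1.29) and Tlr8 (2.90 ± 0.669). The same order held in the 4 wild-type libraries alone. Neighbours in the order were compared within libraries by an exact two-sided sign-flip permutation test, adjusted over the 9 pairs by Benjamini-Hochberg. In 7 pairs the higher gene was higher in 10 of 10 libraries (exact p = 0.00195, the smallest that 10 libraries allow; adjusted p = 0.00251). The exceptions were Tlr2 over Tlr9 (6 of 10 libraries; exact p = 0.281, adjusted p = 0.281) and Tlr9 over Tlr3 (8 of 10; exact p = 0.0684, adjusted p = 0.0769). Tlr2, Tlr9 and Tlr3 therefore form a middle tier whose order did not pass the test. The gaps beside it were wide, with Tlr13 at 1.95 times Tlr2 and Tlr3 at 1.88 times Tlr4, as ratios of RPKM. The test measures consistency between libraries, and another gene length would move a gene alike in all 10. Annotated exons cover 5556 bases of Tlr4 against the 3846 used, and 3346 of Tlr1 against 3054. The step from Tlr4 to Tlr1 therefore depends on the lengths used.

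**Figure D1:**
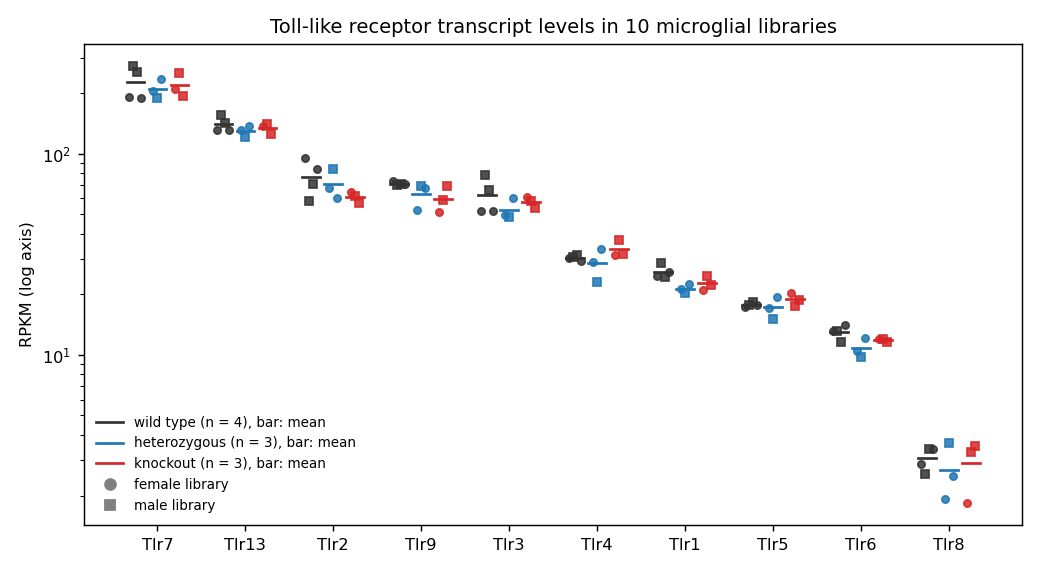
RPKM on a log axis of the 10 Toll-like receptors (horizontal axis, ordered by mean level) in each library; circles are female and squares male libraries, colours are genotypes and short bars are genotype means. Tlr7 and Tlr13 stand above the middle tier of Tlr2, Tlr9 and Tlr3, Tlr8 lies lowest at 1.84 to 3.65 RPKM, and the genotypes overlap in most members.

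Endosomal members supplied most of the family's transcripts. Their share of the summed RPKM of the 10 genes was 71.4% to 79.6% over the libraries, and Tlr7 and Tlr13 together held 51.1% to 58.9%. Among the 13621 genes tested, wild-type Tlr7 ranked 160 and Tlr13 ranked 269 by mean RPKM, where the median gene was at 6.04 RPKM. Tlr2, Tlr9 and Tlr3 ranked 574, 622 and 734, while Tlr8 ranked 9029. The spread between libraries was 7.27% (coefficient of variation) for Tlr13 and 7.97% for Tlr5, and 23.1% for Tlr8, which rested on 112 to 486 reads a library. Tlr2 varied by 18.6%, against a median of 9.98% over the 612 genes within 1.5-fold of its level.

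Among the surface receptors, Tlr2 pairs with Tlr1 or Tlr6 to bind triacylated or diacylated lipopeptides. Tlr2 was at 94.97, 58.1, 70.3 and 83.5 RPKM in wild-type libraries 1, 4, 7 and 10, at 67.3, 84.3 and 60.5 in heterozygous libraries 5, 8 and 11, and at 64.6, 61.4 and 56.7 in knockout libraries 6, 9 and 12. Wild type held the highest value and one of the lower ones, and the knockout libraries lay close together, with library 12 just below the whole wild-type range. Tlr2 was the most abundant partner in every library, at 2.03 to 4.14 times Tlr1 and 4.43 to 8.61 times Tlr6.

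Tlr1 was at 24.7, 28.6, 24.4 and 25.9 RPKM in wild type, 21.2, 20.4 and 22.5 in heterozygous and 21.1, 24.7 and 22.2 in knockout libraries. All 3 heterozygous libraries lay below the lowest wild-type library, and the knockout range reached into it. Tlr6 was at 13.2, 13.1, 11.6 and 14.1 RPKM in wild type, 10.4, 9.79 and 12.1 in heterozygous and 11.9, 12.0 and 11.6 in knockout libraries. Heterozygous libraries 5 and 8 held the lowest Tlr6 values and library 11 overlapped wild type. Tlr1 stayed at 1.77 to 2.18 times Tlr6 as a ratio of RPKM.

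Tlr1 and Tlr6 are neighbours on chromosome 5, both on the minus strand of GRCm38, with 18.5 kb between them. Tlr1 (ENSMUSG00000044827.10) spans 64924679 to 64933563 and Tlr6 (ENSMUSG00000051498.6) 64952031 to 64960097 in GENCODE M21, and each has its whole coding sequence in 1 exon. Their coding sequences were 73.1% identical in a global alignment. The longest identical run is shown because reads that lie wholly inside it fit both genes. It covers coding bases 1468 to 1696 of Tlr1 (chr5:64925537-64925765) and 1507 to 1735 of Tlr6 (chr5:64953828-64954056), 229 bases in all:
shared coding run of Tlr1 and Tlr6: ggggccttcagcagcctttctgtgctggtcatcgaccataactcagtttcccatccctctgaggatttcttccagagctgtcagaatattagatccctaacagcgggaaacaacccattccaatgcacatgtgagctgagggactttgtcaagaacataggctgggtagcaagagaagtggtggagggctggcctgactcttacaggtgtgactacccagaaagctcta
Of the 50-base windows of annotated Tlr1 and Tlr6 transcripts, 454 occur in both genes (13.6% of those of Tlr1 and 12.3% of those of Tlr6), and 0 are shared between any other pair of the 10 members. Over all annotated genes, 15.4% of the Tlr1 windows occur in another gene, 158 genes in all. The sources used here do not say how the authors assigned such reads, so the levels of Tlr1 and Tlr6, and a part of their likeness, are uncertain to that extent. The part played by shared reads was not tested.

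Tlr4, the lipopolysaccharide receptor, was at 30.1, 30.7, 31.3 and 29.3 RPKM in wild type, 29.0, 23.0 and 33.6 in heterozygous and 31.5, 37.0 and 31.8 in knockout libraries. All 3 knockout libraries lay above wild type, though the nearest pair stood at 31.5 and 31.3, and heterozygous library 8 was the lowest of all 10. Tlr5, the flagellin receptor, was at 17.4, 17.7, 18.3 and 17.7 RPKM in wild type, 17.2, 15.02 and 19.4 in heterozygous and 20.3, 17.5 and 18.7 in knockout libraries. Its 3 genotypes overlapped, and library 8 was again the lowest.

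Among the endosomal receptors, Tlr7 binds single-stranded RNA and was the most abundant member in all 10 libraries. It was at 191, 273, 254 and 189 RPKM in wild type, 206, 188 and 235 in heterozygous and 210, 251 and 194 in knockout libraries. Each genotype ran from about the same low value to a higher one, and the 3 ranges overlapped. Tlr13 was at 130, 156, 141 and 131 RPKM in wild type, 131, 121 and 137 in heterozygous and 138, 140 and 125 in knockout libraries. Tlr3, the receptor for double-stranded RNA, was at 52.1, 78.3, 65.6 and 52.0 RPKM in wild type, 49.3, 48.6 and 59.8 in heterozygous and 60.8, 58.2 and 53.8 in knockout libraries. For Tlr7, Tlr13 and Tlr3 alike, wild-type library 4 was the highest of the 10 and heterozygous library 8 the lowest.

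Tlr9, the receptor for unmethylated CpG DNA, was at 72.8, 69.9, 70.4 and 70.9 RPKM in wild type, 52.6, 69.3 and 67.6 in heterozygous and 51.0, 58.8 and 69.2 in knockout libraries. The wild-type values lay close together. The heterozygous libraries all lay below them, as in 2.3% of all genes, and so did the knockout libraries, as in 1.6% of genes. The share of genes with both was not computed. Libraries 8, 11 and 12 were just under the wild-type range and libraries 5, 6 and 9 further off. Tlr8, a receptor for RNA breakdown products, was at 2.88, 2.55, 3.41 and 3.41 RPKM in wild type, 1.92, 3.65 and 2.498 in heterozygous and 1.84, 3.297 and 3.54 in knockout libraries. Heterozygous library 5 and knockout library 6, both female, held the lowest values of both Tlr8 and Tlr9.

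Tlr7 and Tlr8 also lie side by side, with 40.6 kb between them on the minus strand of the X chromosome (Tlr7 167304929 to 167330558, ENSMUSG00000044583.13; Tlr8 167242696 to 167264329, ENSMUSG00000040522.5). In contrast to Tlr1 and Tlr6, these neighbours differed widely in level, with Tlr7 at 51.7 to 115 times Tlr8 as a ratio of RPKM, and they shared 0 of their 50-base windows. Tlr13 lies apart on the same chromosome (106143204 to 106160493, plus strand, ENSMUSG00000033777.4).

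Loss of 1 Trem2 copy, the comparison named in the series title, was examined by limma on log2(RPKM + 0.5) with genotype and sex as terms, adjusted by Benjamini-Hochberg over all genes tested. Of the 10 members 0 passed at an adjusted p under 0.05, where 0% of the 13621 genes did. Trem2 itself was not called here (log2 -1.02, SE 0.14, limma adjusted p = 0.238). The test thus missed a loss known from the genotype, and 0 calls do not show that the members were unchanged. On recovered reads limma-voom also called 0 members, and 1 of the 13621 genes. All 10 differences were negative (49.7% of all genes were), with a median of -0.13 against 0.00 over all genes and a range of -0.28 to -0.07. At an unadjusted p under 0.05 there were 2 members, both lower, against 2.75% of genes in either direction (1.35% lower, 1.4% higher). They were Tlr6 (log2 -0.28, SE 0.11, limma adjusted p = 1.00) and Tlr1 (log2 -0.26, SE 0.10, limma adjusted p = 1.00). In RPKM, Tlr1 was at 25.9 ± 1.92 in wild type (SD, n = 4) and 21.3 ± 1.04 in heterozygous libraries (SD, n = 3), and Tlr6 at 13.01 ± 1.03 and 10.8 ± 1.22. Tlr1 and Tlr9 were the 2 members whose heterozygous libraries all lay below wild type. Of all genes 4.53% had groups that did not overlap here, 2.3% lower and 2.23% higher. Since all heterozygous differences are taken from the same 4 wild-type libraries and the members covary, the 10 signs are not independent. Without heterozygous library 8, 7 members were negative and 1 had an unadjusted p under 0.05. Without wild-type library 10, 9 were negative and 0 had such a p, and without heterozygous library 5 there was 1. Beside these differences, neutrophil markers were positive in the heterozygous comparison in 9 of 10 cases, border macrophage markers in 7 of 7 tested and monocyte markers in 5 of 7, and their part in the result was not tested.

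Loss of both copies likewise gave 0 members that passed by limma or limma-voom, where 0.00734% of genes (Trem2 itself) did by limma. By limma-voom 2 of 13621 genes were called. In the knockout, 8 differences were negative (42.8% of all genes were) and 2 positive, with a median of -0.105 against 0.03 over all genes. Without wild-type library 4, which held the highest Tlr3, Tlr7 and Tlr13, 5 were negative and the median was -0.03. With sample quality weights 6 were negative, with a median of -0.05 and 3 members at an unadjusted p under 0.05. Tlr9 was the 1 member with an unadjusted p under 0.05, against 5.13% of genes, 1.81% lower and 3.32% higher. It was at 59.7 ± 9.14 RPKM against 71.0 ± 1.27 (log2 -0.28, SE 0.12, limma adjusted p = 0.969). Without knockout library 6, the library with the most neutrophil markers, Tlr9 stood at log2 -0.19, and 0 members then had such a p, and the same count held when knockout library 9, or wild-type library 1 or 10, was left out instead. Without wild-type library 4 there were 2. The difference for Tlr2 was about as large and less precise (knockout 60.9 ± 3.96 RPKM against 76.7 ± 15.96; log2 -0.29, SE 0.16, limma adjusted p = 0.977). Its value without knockout library 6 was -0.29. Tlr4 and Tlr5 were the 2 members with a positive difference (log2 0.14, SE 0.13, and log2 0.10, SE 0.10). The knockout lay apart from wild type in Tlr9, below, and in Tlr4, above. Of all genes 4.59% lay apart, 1.6% below and 2.99% above. Without knockout library 9 the difference of Tlr4 was log2 0.06.

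**Figure D2:**
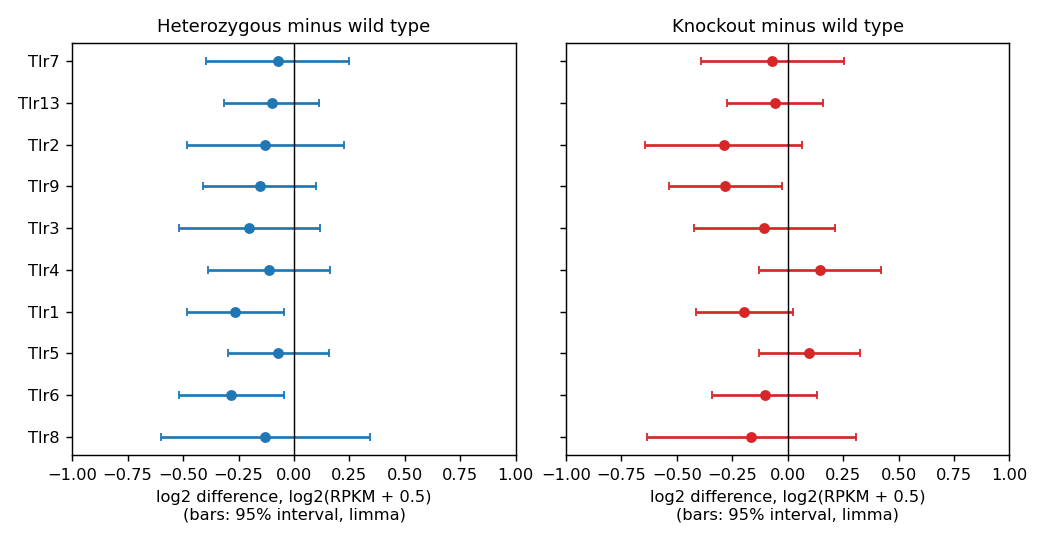
Differences in log2(RPKM + 0.5) from wild type of heterozygous (left) and knockout libraries (right) for the 10 receptors, as limma estimates with 95% intervals. The intervals of Tlr1 and Tlr6 on the left and of Tlr9 on the right leave out 0 before adjustment, and none passes after adjustment over all genes.

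The intervals state how large a change these libraries still allow. For heterozygous against wild type, the 95% limma intervals of the 10 members ran at most from log2 -0.60 to 0.34, that is from 65.9% to 127% of wild type on the log2(RPKM + 0.5) scale. For knockout against wild type they ran from -0.64 to 0.42 (64.1% to 134%). In the knockout the interval of Tlr13 was -0.27 to 0.16 and that of Tlr7 was -0.39 to 0.25, and Tlr2 and Tlr8 had the widest ones. The intervals are not adjusted for the number of genes.

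Knockout against heterozygous libraries gave 0 calls by limma and by limma-voom (0.00734% of genes by limma, 1 of 13621 by limma-voom). At an unadjusted p under 0.05 there were 0 members, where 3.35% of genes had one (2.2% higher, 1.15% lower). Here 7 differences were positive and 3 negative (42.9% of genes were negative), 0 members had groups that did not overlap (7.42% of genes, 4.4% higher and 3.02% lower), and the largest was that of Tlr4 (log2 0.26, SE 0.14, limma adjusted p = 0.999), which stood at 0.04 without heterozygous library 8. A slope on the number of lost copies also called 0 members by limma and by limma-voom (0.00734% of genes by limma, 2 of 13621 by limma-voom). Tlr9 had the smallest p in that fit (log2 -0.14 per copy, SE 0.05, limma adjusted p = 0.85) and was the 1 member with an unadjusted p under 0.05, against 5.43% of genes (1.97% lower, 3.47% higher). Slopes were negative for 8 members, against 43.3% of genes. Without wild-type library 4, 5 slopes were negative and the median went from -0.06 to -0.02. The members with an unadjusted p under 0.05 numbered 0 when knockout library 6, or wild-type library 1 or 10, was left out, 2 without wild-type library 4 and 3 without heterozygous library 8. These contrasts share libraries with the preceding ones.

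**Figure D3:**
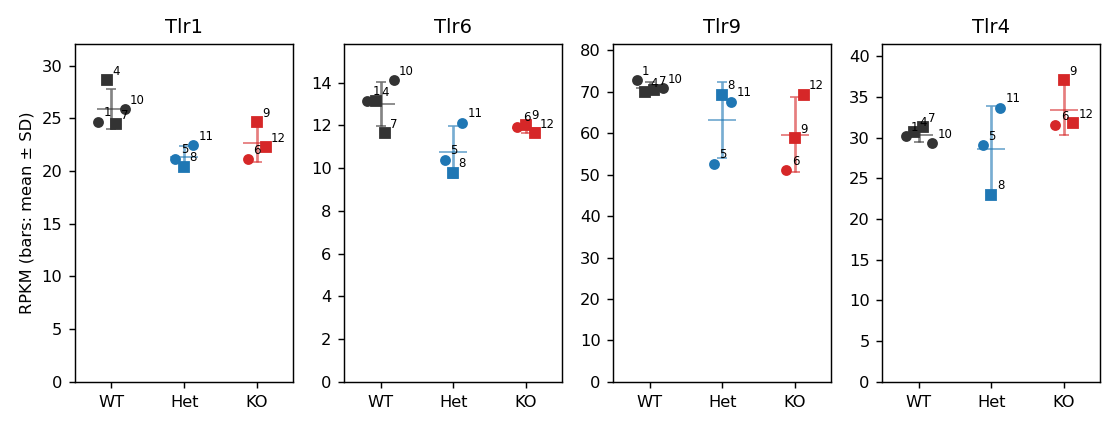
RPKM of Tlr1, Tlr6, Tlr9 and Tlr4 in each library (vertical axes start at 0; numbers are library numbers, circles female, squares male) with genotype mean ± SD. The wild-type libraries are tight for Tlr9 and Tlr4, and heterozygous and knockout libraries spread more widely there.

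The 4 deeper libraries held all genotypes but only 1 wild-type and 1 heterozygous library, and the shallower ones only 1 knockout, library 6, so within-depth values are descriptions. Tlr1 was lower in heterozygous than in wild-type libraries by log2 -0.20 among the deeper and -0.31 among the shallower ones, and Tlr6 by -0.21 and -0.31. Tlr9 in the knockout was at -0.15 and, in library 6 alone, at -0.47, and Tlr2 at -0.50 and -0.17. Of all 10 members, the sign was the same at both depths for 4 in the heterozygous comparison (Tlr1, Tlr6, Tlr8 and Tlr9) and for 6 in the knockout one. Heterozygous differences were negative for 5 members among the deeper libraries and for 9 among the shallower ones. Knockout differences were negative for 4 members among the deeper libraries and for 8 among the shallower ones.

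Tlr7, Tlr8 and Tlr13 are X-linked, and the genotypes hold unequal numbers of each sex, so females and males were compared in the same model. By limma 0 members passed, where 0.044% of genes did (6 genes, Xist and Y-linked genes among them, 0.00734% higher in females and 0.0367% lower). Limma-voom also called 0 members, and 6 of 13621 genes. At an unadjusted p under 0.05 there were 0 members, against 5.34% of genes (3.51% higher, 1.83% lower). The female estimate was negative for 6 members, against 43.3% of genes. Tlr7 was at 206 ± 18.5 RPKM in the 5 female and 232 ± 38.4 in the 5 male libraries (log2 -0.16, 95% interval -0.43 to 0.12, limma adjusted p = 0.928). Tlr13 was at 133 ± 3.78 and 137 ± 14.0 RPKM (log2 -0.02, 95% interval -0.20 to 0.16). Tlr8 was at 2.51 ± 0.663 and 3.29 ± 0.434 RPKM (log2 -0.36, 95% interval -0.76 to 0.04, limma adjusted p = 0.922). Without knockout library 6 the difference of Tlr8 was -0.20, and that of Tlr7 ran from -0.09 without wild-type library 4 to -0.31 without heterozygous library 8. Female and male ranges overlapped in all 10 members (0.903% of genes had ranges that did not), and the estimates of all 3 X-linked members were negative, that of Tlr13 turning without wild-type library 1, 4 or 10. Genotype-by-sex terms, added after seeing the data, gave 0 calls among members in limma; 4 members had an unadjusted p under 0.05 for the heterozygous term (10.5% of genes) and 1 for the knockout term (14.9% of genes). The heterozygous males are library 8 alone and the knockout females library 6 alone.

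The levels of the members were correlated with each other across libraries. Over the 45 pairs, Pearson's r of log2(RPKM + 0.5) across the 10 libraries had a median of 0.28, and 5 pairs exceeded 0.7. These correlations are descriptions over 10 libraries, which share library preparation and the 3 genotypes, and no p is given. The same values were not computed for pairs of other genes, so they are not shown to be particular to this family. Tlr3, Tlr7 and Tlr13 moved together (r = 0.93 for Tlr3 and Tlr13, 0.90 for Tlr7 and Tlr13, 0.87 for Tlr3 and Tlr7), and did so within genotypes (0.91, 0.92 and 0.89 after genotype means were removed). Tlr9 and Tlr8 had an r of -0.33 to 0.10 with those 3, so they did not move with them. With each other they had an r of 0.74 (0.81 within genotypes), but a rank correlation (Spearman's rho) of 0.52. A heterozygous and a knockout library, both female, held the lowest values of both genes, and Tlr8 had the fewest reads of the members. The r of Tlr8 and Tlr9 without those libraries was not computed, so they are not shown to form a set of their own. Tlr1 and Tlr6 had an r of 0.79 (0.48 within genotypes), and Tlr4 and Tlr5 of 0.70. Tlr2 ran against Tlr7 (-0.60), Tlr4 (-0.58), Tlr3 (-0.55) and Tlr5 (-0.54). With the log2 read total, r was 0.51 for Tlr4, 0.50 for Tlr6 and 0.39 for Tlr8, and between -0.22 and 0.27 for the other members.

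**Figure D4:**
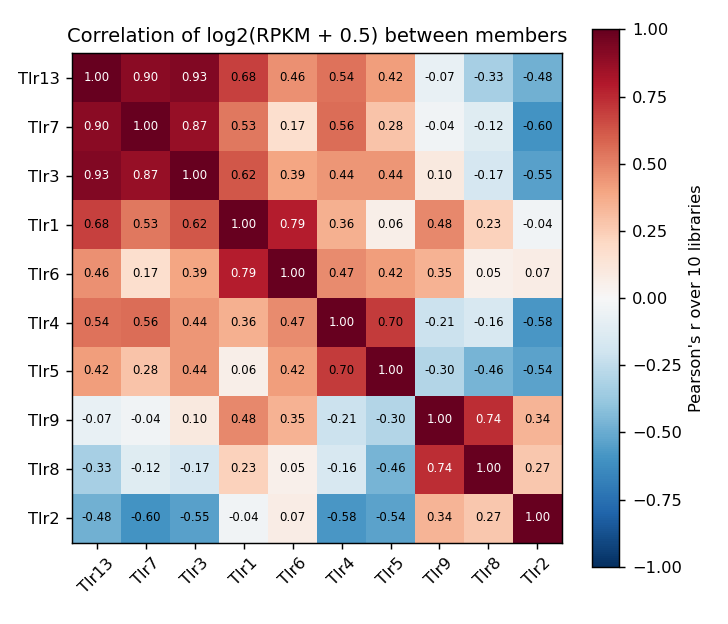
Pearson's r between the 10 receptors over the 10 libraries, from -1 (blue) to 1 (red). The block of Tlr13, Tlr7 and Tlr3 is at 0.87 to 0.93, and Tlr2 is negative with Tlr7, Tlr4, Tlr3 and Tlr5.

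Levels of genes that these receptors can induce were set beside the members. This list was chosen with earlier results of these data known, and induction by the receptors was not measured. The mean log2 level of 17 response genes (cytokines, chemokines and Nfkbiz) had an r of 0.71 with Tlr2 over the 10 libraries, and of -0.63 with Tlr7, -0.56 with Tlr3 and -0.53 with Tlr13. The genes most like each member, among 7498 genes with a mean of at least 5 RPKM, were Fcgr2b for Tlr1 (r = 0.96), an inhibitory Fc receptor, and Tpp1 for Tlr3 (0.97), a lysosomal peptidase. They were 2610008E11Rik for Tlr13 (0.98), 2810474O19Rik for Tlr7 (0.97), Plek, a kinase C substrate of blood cells, for Tlr8 (0.93) and Nfix, a transcription factor, for Tlr9 (0.93). Abl2, a tyrosine kinase, led for Tlr2 (0.89), Zfp715 for Tlr4 (0.95), the interferon-induced gene Ifit1 for Tlr5 (0.92) and Zmat1 for Tlr6 (0.93). Among the genes next after the leading one, the highest r were those of Bbx and Sppl2a for Tlr3 (0.96 each) and Exoc5 and Ubap2l for Tlr7 (0.96 each). Hs2st1 (0.96) and Entpd1, an ectonucleotidase (0.95), followed for Tlr13, and Casp1 for Tlr1 (0.94). The rest had lower values. Among so many genes and 10 libraries high values arise readily, and the list is a description.

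Promoter windows of RefSeq (GRCm38.p6) were found for 8 of the 10 members, 10 windows in all. Each was read for 250 bases before the start and searched on both strands for GAGGAAGT (the core bound by the myeloid factor PU.1), TGANTCA (AP-1), a pair of GAAA with any 2 bases between (the core of interferon-stimulated response elements), TTGCGNAA (C/EBP) and CACGTG (E-box). Over all 32851 windows the shares with a match were 2.44%, 6.75%, 2.98%, 0.67% and 6.02%, and among the 10 windows of members 1, 1, 1, 0 and 1 had one. The windows of Tlr1 and Tlr6, the covarying neighbours, and of Tlr9, whose mean was lowest in the knockout, are shown with matches in capitals. The mean of Tlr2 was also lowest in the knockout, at 79.4% of wild type against 84.1% for Tlr9. The window of Tlr2 held no match and is not shown.
Tlr1, chr5:64933559-64933808, minus strand, GAGGAAGT in capitals: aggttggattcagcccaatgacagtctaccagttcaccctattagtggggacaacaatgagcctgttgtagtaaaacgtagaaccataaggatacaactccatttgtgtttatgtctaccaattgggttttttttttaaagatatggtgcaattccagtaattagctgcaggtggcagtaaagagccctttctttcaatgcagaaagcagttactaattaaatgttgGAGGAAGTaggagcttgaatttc
Tlr6, chr5:64959167-64959416, minus strand, overlapping matches to the GAAA pair on the other strand in capitals: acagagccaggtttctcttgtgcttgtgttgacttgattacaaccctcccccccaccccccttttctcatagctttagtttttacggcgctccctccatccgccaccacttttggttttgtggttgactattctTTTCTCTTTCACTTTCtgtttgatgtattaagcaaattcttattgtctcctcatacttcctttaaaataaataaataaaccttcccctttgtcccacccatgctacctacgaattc
Tlr9, chr9:106222348-106222597, plus strand, TGANTCA in capitals: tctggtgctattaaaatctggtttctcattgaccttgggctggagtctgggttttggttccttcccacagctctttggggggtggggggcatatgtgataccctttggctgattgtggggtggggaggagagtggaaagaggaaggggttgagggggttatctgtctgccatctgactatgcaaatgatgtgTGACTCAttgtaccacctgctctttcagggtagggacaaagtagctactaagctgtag
Tlr1 and Tlr6 thus shared none of the 5 motifs in these windows. The second window of Tlr1 held CACGTG and that of Tlr6 held no match. A match is a string of letters, and binding was not measured here.

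The machinery around the receptors also gave 0 calls. All 12 genes for co-receptors, chaperones and trafficking were tested, and 0 of them passed by limma in knockout or heterozygous against wild type, with 0 at an unadjusted p under 0.05 in either and medians of 0.01 and 0.03. The most abundant were Ly86 and Cd180, the MD-1 and RP105 pair that restrains Tlr4 signalling (912 ± 110 and 605 ± 119 RPKM in wild type), and Hsp90b1, the chaperone gp96 that folds most members (560 ± 52.9; log2 -0.19, SE 0.11 in knockout). Unc93b1, which carries endosomal members out of the endoplasmic reticulum, was added for that role after its values were seen and was at 164 ± 7.43 RPKM in wild type, 155 ± 20.8 in heterozygous and 168 ± 31.6 in knockout libraries.

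Of 26 adaptors, kinases and transcription factors, 0 passed. At an unadjusted p under 0.05, 1 was higher in the knockout, where 3.32% of all genes were higher. It was Irf3, the factor downstream of TRIF (log2 0.35, SE 0.15, limma adjusted p = 0.969). In heterozygous libraries 1 was higher, where 1.4% of all genes were. It was Irak4, a kinase of the MyD88 complex (log2 0.31, SE 0.13, limma adjusted p = 1.00). The medians were 0.02 and -0.02. Tab2, Peli1 and Irf5, the most abundant of them, were at log2 0.01, -0.07 and 0.08 in the knockout. Of 14 negative regulators 0 passed, and 1 was lower at an unadjusted p under 0.05 in the knockout, where 1.81% of all genes were lower. It was Nfkbia, the inhibitor of NF-kB (knockout 223 ± 38.5 RPKM against 295 ± 24.7, log2 -0.42, SE 0.13, limma adjusted p = 0.937). Dusp1, Atf3 and Tnfaip3, the most abundant of these, stood at log2 -0.27, 0.02 and -0.15. Of 17 tested response genes 0 passed and 0 had an unadjusted p under 0.05 in either comparison, against 5.13% of all genes in the knockout and 2.75% in heterozygous libraries. Their median in the knockout was -0.17, against 0.03 over all genes, with Tnf at log2 -0.35 (SE 0.18), Nfkbiz at -0.31, Il1a at -0.17 and Ccl3 at -0.07. In heterozygous libraries the median was -0.07 and Cd40 had the smallest p (log2 -0.44, SE 0.21).

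Tlr11 and Tlr12, the other family genes listed, stood low. Tlr11, a receptor for profilin, was at 0.472 to 1.15 RPKM (heterozygous log2 0.27, SE 0.25). Tlr12 was at 2.79 ± 0.405 RPKM in wild type, 3.98 ± 0.982 in heterozygous and 2.68 ± 0.178 in knockout libraries (heterozygous log2 0.44, SE 0.19, limma adjusted p = 1.00). Both genes were opposite in sign to all 10 members in the heterozygous comparison. Neutrophil markers had positive differences in the knockout in 10 of 10 cases, and monocyte and border macrophage markers in 7 of 7 tested each, alongside the differences given above, and the part of those cells in the members' levels was not tested. Without knockout library 6, 0 members were called in any of the 5 contrasts, where 0 to 7 of 13506 genes were. The count of members was also 0 with all libraries, so it does not test the part of those cells.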

How the data were processed

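The deposited files hold RPKM on a linear scale, computed by the authors per gene and library. Per the submitters' processing notes, STAR, HTSeq, edgeR, limma and the build mm10 were used; their versions, the annotation and the strand setting are unstated. Of 24060 names, 27 that had become dates were left out. Values of all 19983 genes above 0 were whole multiples of 1 read (within 0.0005 reads plus a relative 3e-07), so reads were recovered, and the totals behind the RPKM were 1.0189 to 1.0277 times the recovered reads. As the files hold RPKM, limma 3.58.1 in R 4.3.3 was run on log2(RPKM + 0.5) with a mean-variance trend, all 10 libraries, genotype and sex as terms, for 5 contrasts. Recovered reads entered only limma-voom and the depth covariate. The fold scale understates changes of low genes. The fit was tested on simulated data with changes larger than any member difference here, so that test does not measure the power for such differences. Loci are from GENCODE M21 (GRCm38). Members and lists were chosen with earlier results of these data known. Beside members, the rule names the 3 most abundant genes of each list, any called, the 1 with the smallest p, and for each member the genes most like it. Permutation and correlation steps used Python 3.11.15.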

Additional observations from a re-analysis of the deposited data

Results flagged for a closer look

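In each group of 4 or 5 libraries, the gap of the extreme library to its neighbour was set against Dixon's 95% critical value, for the 10 members in wild-type, female and male libraries, 30 groups in all. Chance alone marks about 1 in 20 groups. The 1 library that stood apart was knockout library 9 for Tlr9 among the males, at 58.8 RPKM, where the other 4 males lay at 69.2 to 70.4; the gap was 0.900 of the range. Whether genotype differences differ between the sexes was tested with genotype-by-sex terms in limma, added after seeing the data, and 0 members passed (lowest adjusted p = 0.306 for the heterozygous and 0.258 for the knockout term). At an unadjusted p under 0.05 there were 4 members in the heterozygous term, against 10.5% of genes (Tlr2 at log2 -0.87 in females minus males, Tlr7 0.69, Tlr3 0.62 and Tlr4 0.49), and 1 in the knockout term, against 14.9% of genes (Tlr3, 0.58). The heterozygous males are the single library 8, so that library and the sex cannot be told apart there.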

How the results depend on the processing

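The count of members called was 0 in every contrast under all 19 alternatives (18 for the sexes): 2 other filters, pseudocounts of 0.1 and 1, no sex term, median-ratio scaling, sample quality weights, a depth covariate, limma-voom, and leaving out each library. Over all genes tested, 0 to 7 were called under these alternatives. The lowest adjusted p of any member was 0.519 (knockout against wild type, sample quality weights). The order of levels was the same in wild type alone. The sign of 24 member differences was followed. They were those of all members in knockout and heterozygous against wild type, of Tlr4 in knockout against heterozygous, and of the X-linked members by sex. Tlr4 had the largest difference of its contrast, and slopes and the remaining differences were not followed one by one. Of the 24, 15 kept their sign throughout. The other 9 turned under at least 1 alternative. With sample quality weights, Tlr7 and Tlr13 in the knockout came to 0.0782 and 0.0125 and Tlr7 in heterozygous libraries to 0.0102. Leaving out each library in turn, the knockout differences ranged from -0.23 to 0.0264 for Tlr3, -0.15 to 0.0389 for Tlr7, -0.34 to 0.0411 for Tlr8 and -0.10 to 0.0101 for Tlr13. The heterozygous ones ranged from -0.23 to 0.0842 for Tlr4, -0.14 to 0.0192 for Tlr5, -0.19 to 0.13 for Tlr7 and -0.27 to 0.0137 for Tlr8, and the female difference of Tlr13 from -0.0871 to 0.0321. The cause was not tested. No paired analysis was made, because the genotypes share no replicate numbers and the labels state no other pairing. After library 1 the numbers repeat the order wild type, heterozygous, knockout, and a block by consecutive numbers was not tried. Tlr8 had the fewest reads of the members, 112 to 486 a library.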
